A study of Homo sapiens with 8 samples.

Results

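The 36 genes described here are targets of the response to low oxygen other than glycolytic enzymes, pH regulators, VEGF ligands and collagen-modifying enzymes. They were taken by symbol from a given list, and 36 of 36 were found among the 61228 genes of the count table. Messenger RNA had been sequenced from MDA-MB-231, an established line of human triple-negative breast cancer, in 8 libraries forming 4 groups of 2. Control monolayers were nucleofected with control guide RNAs and grown on plastic, and their label names no Cas9. Control gels held cells that received Cas9 with control guides and grew inside collagen I gels. Knockout monolayers and knockout gels held cells given Cas9 and guides that target ETV1, ETV4 and ETV5, 3 PEA3-group transcription factors of the ETS family, in those same cultures. Serum was present at 10% throughout, the gels were seeded at 100000 cells per ml and the collagen had 1 of 2 concentrations (1.2 and 2.4 mg per ml), which no label assigns to a library. The gels, but not the monolayers, were digested with collagenase for 10 and then 5 minutes at 37 °C before RNA extraction. No source used here gives the oxygen tension, the time in culture, whether the edited cells were clonal, or whether replicate libraries had separate cultures behind them. What the p-values measure is then the spread between these libraries, which may be technical.

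Cells sense oxygen through prolyl hydroxylases (the EGLN enzymes), which mark the alpha subunits of the hypoxia-inducible factors (HIF1A and EPAS1) for destruction by the VHL ubiquitin ligase. When oxygen falls, the alpha subunits persist, pair with ARNT and bind short elements with a core of ACGTG or GCGTG near their target genes. The targets outside glycolysis remove mitochondria, change chromatin, restrain growth, store glycogen and lipid and signal to vessels and other tissues. Many of them also answer to other inputs, such as amino acid shortage, glucocorticoids or fatty acids.

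Library totals ran from 15824504 to 23896899 counts, and the 36 genes took 0.196 to 0.351% of them. Levels are given in CPM, the TMM-scaled counts relative to library size, and each log2 fold change carries its standard error (SE) from edgeR's quasi-likelihood fit over 15568 tested genes, with Benjamini-Hochberg adjusted p over those genes and a threshold of 0.05. All 36 genes passed the filter on low counts. Of the targeted genes, ETV1 gave 200.2 and 205 CPM in the control monolayers, 136 and 151 in the knockout monolayers, 222 and 217 in the control gels and 138 and 141 in the knockout gels. ETV4 fell in both cultures, in gels from 96.7 ± 0.129 to 65 ± 2.89 CPM (mean ± SD, n = 2, adjusted p = 3.62e-09, edgeR), as did ETV1 (adjusted p = 3.1e-12). ETV5 stood at 114 ± 6.66 CPM in control gels and 116 ± 1.28 CPM in knockout gels (adjusted p = 0.808, edgeR). Edited alleles and protein levels cannot be read from these counts. The 7 markers of a mesenchymal-like breast line, VIM among them, summed to 8358 to 10641 CPM. With knockout, 3 of these 7 were lower and 4 higher in monolayers, and 1 was lower and 4 higher in gels. Over all genes tested, 19.2% and 23.9% were called. ESR1 and PGR had group means of at most 0.0713 CPM, and ERBB2 lay at 63.9 ± 3.23 CPM in control gels. Together with GATA3, FOXA1, CDH1 and EPCAM, also expected to be low or absent, they summed to 86.3 to 100.1 CPM. Of the 4 of those 7 genes tested, 1 was higher with knockout in each culture. Markers of leukocytes summed to 1.1 to 3.08 CPM, of endothelium to 7.12 to 12.4 CPM and of fibroblasts to 12.2 to 25.1 CPM, with CD3E, CDH5 and DCN at or near 0. Of the 6 such markers tested, 2 were called between knockout and control, PECAM1 lower in knockout gels (7.25 to 4.17 CPM) and COL1A1 higher in knockout monolayers (12.9 to 18.3 CPM), and the part of other cells in the results was not tested. The 13 mitochondrially encoded genes took 2.65 to 4.47% of counts, and none of them passed in any of the 5 comparisons.

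In collagen gels, 29 of the 36 hypoxia targets fell in the knockout cells, 1 rose and 6 did not pass the threshold. Over all genes tested, 23.9% were called, 12.4% lower and 11.5% higher in the same comparison. The falls were led by PPFIA4 at 12.5-fold, NDRG1 at 6.08-fold, SPAG4 at 3.72-fold and MIR210HG at 3.48-fold, and the rise was that of ADM, the gene of the vasodilator peptide adrenomedullin. The median log2 change was -0.53 for the 36 genes and 0.00 for all genes tested. Of the 36, 9 fell by more than 2-fold, against 1.74% of all genes tested. Both knockout gel libraries lay below the other 6 libraries for 28 of the 36 genes, while 16.8% of all genes tested had that pattern. The exceptions were KDM7A, SAP30, BHLHE41, ADM, PLIN2, PPP1R3C, RAB20 and RIOK3. In bulk RNA, fewer cells expressing a gene and less RNA per cell cannot be told apart. Leaving out any 1 gel library left 24 to 28 of the 29 falls, and the rise of ADM passed in each of those fits.

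**Figure D1:**
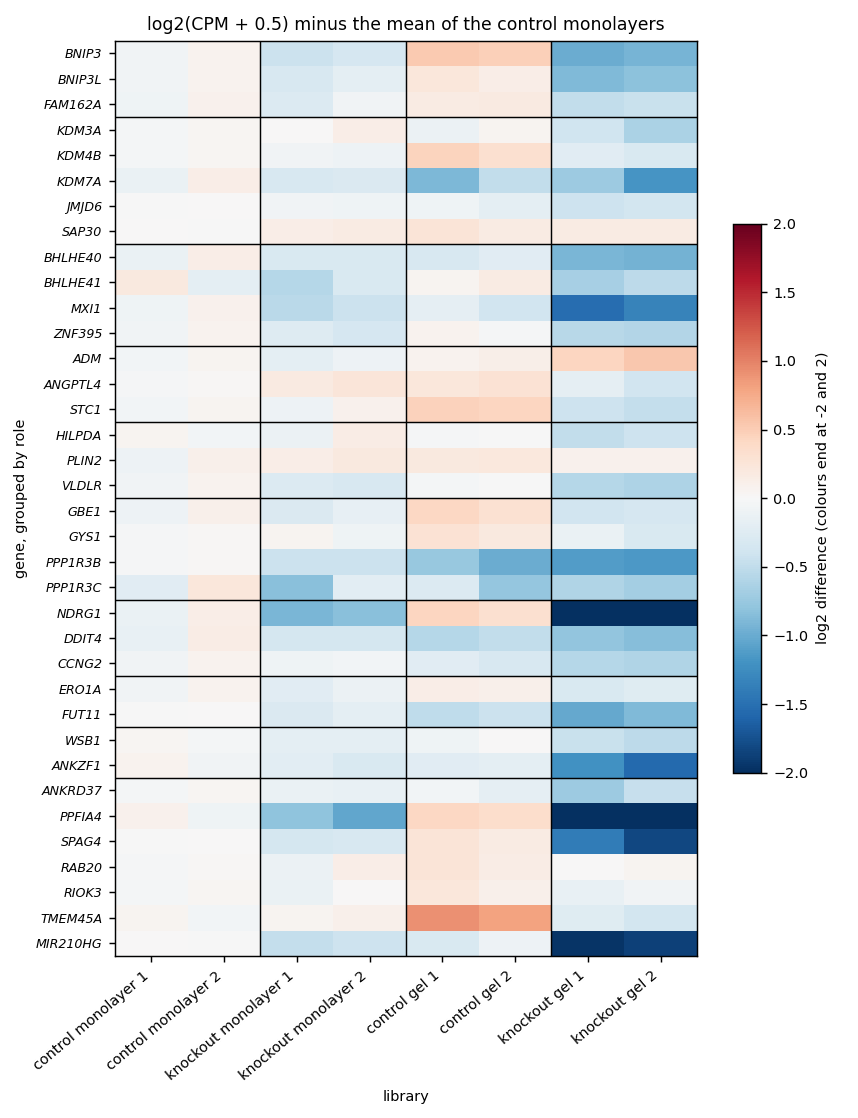
Each row is 1 of the 36 genes, grouped by role, and each column 1 of the 8 libraries; colour gives log2(CPM + 0.5) minus the mean of the control monolayers, with colours ending at -2 and 2. The knockout gel columns are bluest for most rows, deepest in NDRG1, PPFIA4 and MIR210HG, while ADM is red there.

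The promoters show which members carry the core letters that HIF recognizes close to their start. RefSeq promoters (GRCh38.p14, 250 bases before to 50 after a start) were present for 25 of the 36 genes, with more than 1 start for 2 of them. At least 1 ACGTG or GCGTG, on either strand, was found for 23 of the 25 (92%), against 52.4% of 27305 genes with a promoter and 69.4% of those tested here. ACGTG alone was found for 76% of the 25, 24.9% of all genes and 32% of those tested. The letters CACGTG, which hold ACGTG on both strands and are also the E-box of other factors such as BHLHE40, were found for 40%, 8.77% and 12.2%. CGGAAG, the core of ETS-family sites, was found for 28% of the 25, against 22.6% of all genes and 37.6% of those tested. The 19 genes with ACGTG had a median log2 change of -0.54 with knockout in gels and the 6 without it one of -0.48. The 11 genes with no promoter to search, NDRG1, SPAG4, ANKZF1 and BNIP3L among them, had one of -0.60. SAP30 and TMEM45A had neither ACGTG nor GCGTG, and TMEM45A fell in the knockout gels and SAP30 did not pass. A match describes letters, not a bound site. The genes were chosen as hypoxia targets, so their share of these letters is not independent of that choice.

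The 250 bases before the start of 6 members are shown 5′ to 3′ on the gene's strand, with each ACGTG or GCGTG, on either strand, in capitals. PPFIA4, BNIP3 and MIR210HG are among the largest falls, TMEM45A fell with no match, ADM rose, and PPP1R3C was near the limit of detection with 4 matches. A CACGTG is counted as a match on each strand. For PPFIA4, BNIP3 and PPP1R3C the count of matches therefore exceeds that of the stretches in capitals.
PPFIA4 (chr1:203026241-203026490, plus strand): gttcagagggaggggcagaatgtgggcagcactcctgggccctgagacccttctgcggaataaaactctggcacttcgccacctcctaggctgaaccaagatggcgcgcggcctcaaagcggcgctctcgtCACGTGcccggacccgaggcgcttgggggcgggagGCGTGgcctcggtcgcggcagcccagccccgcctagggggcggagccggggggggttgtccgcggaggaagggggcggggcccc
BNIP3 (chr10:131981924-131982173, minus strand): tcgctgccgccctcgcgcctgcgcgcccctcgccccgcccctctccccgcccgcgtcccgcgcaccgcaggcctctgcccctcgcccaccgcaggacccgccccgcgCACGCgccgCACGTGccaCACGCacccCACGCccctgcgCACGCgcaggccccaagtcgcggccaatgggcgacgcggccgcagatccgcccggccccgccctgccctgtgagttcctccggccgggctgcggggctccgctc
MIR210HG (chr11:568458-568707, minus strand): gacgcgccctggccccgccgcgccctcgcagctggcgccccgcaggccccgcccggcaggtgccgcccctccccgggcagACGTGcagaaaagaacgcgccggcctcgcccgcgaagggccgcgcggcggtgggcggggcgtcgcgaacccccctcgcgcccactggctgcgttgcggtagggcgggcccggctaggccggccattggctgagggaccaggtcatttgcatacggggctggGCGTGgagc
TMEM45A (chr3:100492369-100492618, plus strand): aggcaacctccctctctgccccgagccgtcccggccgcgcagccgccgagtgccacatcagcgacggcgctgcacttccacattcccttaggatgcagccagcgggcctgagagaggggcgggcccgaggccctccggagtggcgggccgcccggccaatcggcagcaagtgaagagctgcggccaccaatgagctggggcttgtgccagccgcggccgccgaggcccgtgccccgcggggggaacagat
ADM (chr11:10304823-10305072, plus strand): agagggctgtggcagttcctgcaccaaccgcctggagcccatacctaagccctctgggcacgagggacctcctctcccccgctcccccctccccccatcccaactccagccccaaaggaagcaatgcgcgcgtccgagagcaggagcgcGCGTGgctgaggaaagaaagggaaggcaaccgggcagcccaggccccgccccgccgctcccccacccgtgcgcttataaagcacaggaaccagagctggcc
PPP1R3C (chr10:91633072-91633321, minus strand): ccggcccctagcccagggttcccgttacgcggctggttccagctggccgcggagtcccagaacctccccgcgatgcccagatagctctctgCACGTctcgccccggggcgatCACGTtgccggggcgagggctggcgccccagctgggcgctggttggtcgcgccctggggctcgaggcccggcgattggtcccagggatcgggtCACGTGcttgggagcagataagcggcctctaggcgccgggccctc
BNIP3 holds 6 matches crowded together, a CACGTG counted on both strands among them, and PPFIA4 has 3, also with a CACGTG counted so. MIR210HG has 2 matches, and ADM has a lone GCGTG. In the knockout gels TMEM45A, with 0 matches, fell by 2.34-fold, and PPP1R3C, with 4, had a log2 change of -0.20 (95% interval -0.87 to 0.47).

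The 3 genes of mitochondria and mitophagy all fell in the knockout gels, where 12.4% of all genes tested were lower. BNIP3, a receptor in the outer mitochondrial membrane that marks mitochondria for autophagy, gave 309 and 341 CPM in the control monolayers, 242 and 258 in the knockout monolayers, 468 and 454 in the control gels and 163 and 170.3 in the knockout gels. The control gels were the highest group and the knockout gels the lowest, with no overlap between any of the groups. The fall in gels was -1.47 ± 0.051 on the log2 scale (SE, n = 2 a group, adjusted p = 4.55e-22, edgeR), against -0.38 ± 0.050 in monolayers. Its relative BNIP3L, which does the same task, gave 166 and 181 CPM in the control monolayers, 138 and 151 in the knockout monolayers, 203 and 190.3 in the control gels and 93.8 and 98 in the knockout gels. Its log2 changes with knockout were -1.04 in gels and -0.26 in monolayers (adjusted p = 2.87e-16 and 0.000663, edgeR), so both receptors fell in both cultures. FAM162A, a mitochondrial protein linked to cell death in low oxygen, gave 36.1 and 40.4 CPM in the control monolayers, 31.6 and 36.4 in the knockout monolayers, 42.8 and 43.1 in the control gels and 27.1 and 27.9 in the knockout gels. Its knockout gels lay below all other libraries (log2 -0.64, adjusted p = 9.81e-08, edgeR), while the monolayer groups overlapped (log2 -0.16, adjusted p = 0.167).

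Among genes that act on chromatin or use oxygen to modify proteins, 3 of 5 fell in the knockout gels. Of all genes tested, 12.4% did so. KDM4B, a histone demethylase that needs oxygen, gave 60.9 and 64.5 CPM in the control monolayers, 59.4 and 58.5 in the knockout monolayers, 85.5 and 78.7 in the control gels and 53.4 and 50.4 in the knockout gels. It was high in the control gels alone, and the knockout gels lay below the monolayers (log2 -0.66 ± 0.063, adjusted p = 4e-10, edgeR). KDM3A, another oxygen-dependent histone demethylase, gave 60.1 and 63.3 CPM in the control monolayers, 62.3 and 67.6 in the knockout monolayers, 56.9 and 64.1 in the control gels and 46.9 and 39.5 in the knockout gels. Its control gels overlapped the monolayers, and the knockout gels lay below all 3 other groups (log2 -0.48, adjusted p = 2.02e-05, edgeR). JMJD6, a lysyl hydroxylase of the same enzyme fold, gave 42.6 and 43.5 CPM in the control monolayers, 40.8 and 40.3 in the knockout monolayers, 40.6 and 37.5 in the control gels and 32.1 and 33.2 in the knockout gels. This small fall in gels (log2 -0.26, adjusted p = 0.00741, edgeR) did not pass by DESeq2 (adjusted p = 0.0618). The call was also lost without control gel library 1 (log2 -0.20) or knockout gel library 1 (-0.22). SAP30, a subunit of the SIN3 histone deacetylase complex, gave 42.1 and 41.8 CPM in the control monolayers, 46.3 and 47.1 in the knockout monolayers, 50.4 and 47.3 in the control gels and 47 and 46.9 in the knockout gels. It was lowest in the control monolayers, and its knockout effect in gels was -0.06 (95% interval -0.19 to 0.08, adjusted p = 0.582, edgeR). KDM7A, a histone demethylase as well, was scarce, at 6.24 and 7.57 CPM in the control monolayers, 5.44 and 5.56 in the knockout monolayers, 3.46 and 4.72 in the control gels and 3.95 and 2.76 in the knockout gels. Its gel groups overlapped, and the interval of its change (-0.70 to 0.15 on the log2 scale) held falls as large as that of KDM3A.

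All 4 transcription regulators fell in both cultures. Of all genes tested, 12.4% were lower in gels and 9.6% in monolayers. By DESeq2 the monolayer call of BHLHE41 did not pass (adjusted p = 0.167). MXI1, which opposes MYC by competing for its partner MAX, gave 45.8 and 51.9 CPM in the control monolayers, 33.4 and 36 in the knockout monolayers, 42.8 and 37.5 in the control gels and 16.6 and 19 in the knockout gels. The knockout gels were the lowest group, 2.26-fold below the control gels (log2 -1.18 ± 0.090, adjusted p = 4.47e-12, edgeR), and the monolayers differed in the same direction (log2 -0.48, adjusted p = 3.52e-05). BHLHE40, a repressor that also takes part in the circadian clock, gave 153 and 185 CPM in the control monolayers, 136 and 135 in the knockout monolayers, 134 and 144 in the control gels and 89 and 87.1 in the knockout gels. Knockout and control did not overlap in either culture, and the control gels overlapped the knockout monolayers (log2 -0.66 in gels and -0.31 in monolayers). ZNF395, a transcription factor, gave 115 and 125 CPM in the control monolayers, 100.3 and 95.3 in the knockout monolayers, 126 and 117 in the control gels and 81.1 and 79.5 in the knockout gels. Its 2 control groups overlapped and its 2 knockout groups did not, and the falls were -0.60 in gels and -0.29 in monolayers on the log2 scale. BHLHE41, the close relative of BHLHE40, was scarcer, falling from 8.81 ± 0.503 to 5.2 ± 0.384 CPM in gels and from 8.21 ± 1.6 to 5.9 ± 0.83 CPM in monolayers (mean ± SD, n = 2, adjusted p = 0.000496 and 0.0232, edgeR).

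The 3 secreted factors moved in different directions. STC1, a glycoprotein hormone, gave 54.2 and 58.2 CPM in the control monolayers, 52.4 and 59.3 in the knockout monolayers, 77.8 and 75.8 in the control gels and 42 and 40.3 in the knockout gels. The monolayer groups overlapped, the control gels were highest and the knockout gels lowest (log2 -0.90 ± 0.068 with knockout in gels, adjusted p = 1.22e-12, edgeR; -0.00 in monolayers, adjusted p = 0.983). ANGPTL4, an inhibitor of lipoprotein lipase, gave 13.8 and 14.5 CPM in the control monolayers, 16.1 and 16.8 in the knockout monolayers, 16.6 and 17.3 in the control gels and 12.5 and 10.8 in the knockout gels. It fell with knockout in gels (log2 -0.54, adjusted p = 0.000232, edgeR) and had an estimate of the opposite sign in monolayers (0.22, 95% interval 0.01 to 0.43, adjusted p = 0.145). ADM gave 51.6 and 56 CPM in the control monolayers, 46.6 and 50.1 in the knockout monolayers, 56.8 and 58 in the control gels and 72.8 and 78.2 in the knockout gels. The knockout gels were the highest libraries of all 8 (log2 0.40 ± 0.064, adjusted p = 1.43e-05, edgeR), whereas the knockout monolayers were the lowest (-0.15, adjusted p = 0.132). With correction for transcript length and GC content, the monolayer difference did pass (log2 -0.22, adjusted p = 0.0141).

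**Figure D2:**
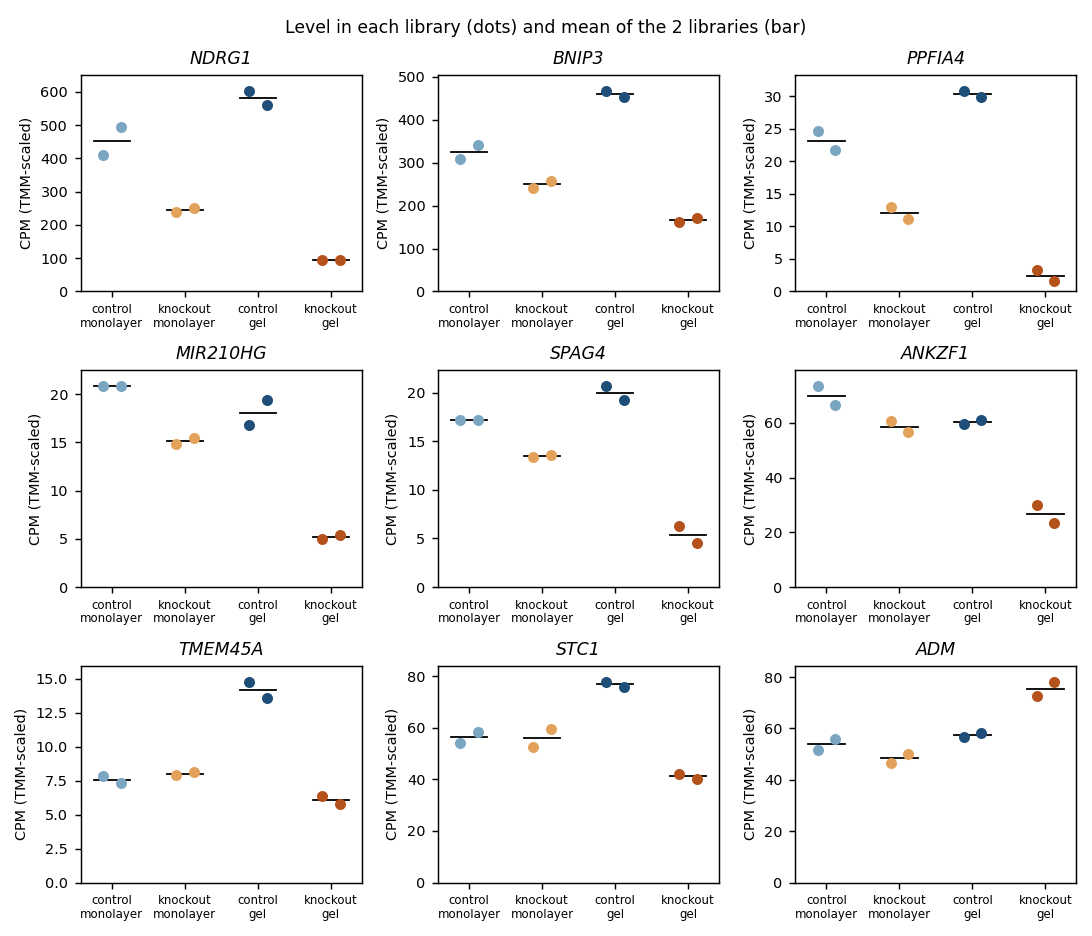
Dots give the TMM-scaled CPM of 9 genes in each of the 8 libraries, by group on the x axis, and bars the mean of the 2 libraries. NDRG1, BNIP3, PPFIA4, MIR210HG, SPAG4, ANKZF1, TMEM45A and STC1 are lowest in the knockout gels, and ADM is highest there.

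Of the lipid genes, VLDLR and HILPDA fell in the knockout gels and PLIN2 did not pass, where 12.4% of all genes tested were lower. VLDLR, a receptor that takes up lipoproteins, gave 44.7 and 49.8 CPM in the control monolayers, 38.8 and 37.6 in the knockout monolayers, 46.1 and 46.7 in the control gels and 31.5 and 30.6 in the knockout gels. The 2 control groups overlapped each other, and it fell with knockout in gels (log2 -0.58, adjusted p = 1.48e-07, edgeR) and in monolayers (-0.30, adjusted p = 0.00241). HILPDA, which blocks the breakdown of stored triglyceride, gave 9.38 and 8.62 CPM in the control monolayers, 8.22 and 9.98 in the knockout monolayers, 8.88 and 8.94 in the control gels and 6.25 and 6.64 in the knockout gels. The other 3 groups overlapped one another, and the knockout gels lay below them (log2 -0.47, adjusted p = 0.0142, edgeR). The call did not pass by DESeq2 (adjusted p = 0.114). It was also lost without control gel library 1 (log2 -0.47), control gel library 2 (-0.46) or knockout gel library 1 (-0.40). PLIN2, a coat protein of lipid droplets, gave 110.4 and 126 CPM in the control monolayers, 129 and 134 in the knockout monolayers, 134 and 136 in the control gels and 125 and 125 in the knockout gels. It was the only one of the 36 genes to rise in the knockout monolayers (log2 0.16 ± 0.056, adjusted p = 0.0354, edgeR), where the control libraries differed by more than the knockout ones. Without control monolayer library 1 the rise was 0.06 (adjusted p = 0.661), and without knockout library 1 or 2 it also missed the threshold (0.0789 and 0.218).

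Of the glycogen genes, 2 enzymes fell in the knockout gels and 2 targeting subunits did not pass the threshold there. Among all genes tested, 12.4% were lower in that comparison. GBE1, the glycogen branching enzyme, gave 214 and 247 CPM in the control monolayers, 188 and 206 in the knockout monolayers, 305 and 283 in the control gels and 177 and 182 in the knockout gels. Control gels were highest, and the knockout gels lay below the monolayers (log2 -0.71 ± 0.060, adjusted p = 7.6e-09, edgeR). GYS1, the glycogen synthase of muscle and other tissues, gave 50.1 and 51.9 CPM in the control monolayers, 53 and 47.8 in the knockout monolayers, 62.4 and 58.4 in the control gels and 46.3 and 41 in the knockout gels. It changed with knockout in gels (log2 -0.47, adjusted p = 4.04e-06, edgeR), while its monolayer groups overlapped (-0.02, 95% interval -0.16 to 0.13). PPP1R3B, which brings protein phosphatase 1 to glycogen, gave 18.5 and 19.1 CPM in the control monolayers, 13.8 and 13.8 in the knockout monolayers, 10.9 and 9.22 in the control gels and 8.38 and 8.24 in the knockout gels. It was high on plastic and low in collagen in both kinds of cell, and its knockout effect passed in monolayers (log2 -0.45, adjusted p = 0.00223, edgeR) and not in gels (-0.28, 95% interval -0.54 to -0.03, adjusted p = 0.0976). PPP1R3C, a second such subunit, was near the limit of detection at 2.01 and 2.92 CPM in the control monolayers, 1.15 and 2.02 in the knockout monolayers, 1.92 and 1.21 in the control gels and 1.42 and 1.33 in the knockout gels, and all its groups overlapped with at least 1 other.

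Of the genes that restrain growth under stress, 3 of 3 fell in the knockout gels and 2 in the knockout monolayers. Over all genes tested the shares were 12.4% and 9.6%. NDRG1, a cytoplasmic protein strongly induced by low oxygen and studied as a suppressor of metastasis, lies on chromosome 8 (GRCh38, 133237171 to 133302022, minus strand). It gave 410.3 and 493 CPM in the control monolayers, 238 and 251 in the knockout monolayers, 603 and 560.4 in the control gels and 95.7 and 95.7 in the knockout gels. The 4 groups did not overlap, and the order ran from control gels through control and knockout monolayers to knockout gels. The knockout effect was -2.60 ± 0.079 on the log2 scale in gels (adjusted p = 9.94e-11, edgeR) and -0.88 ± 0.073 in monolayers (adjusted p = 2.94e-06). DDIT4, an inhibitor of mTOR complex 1 that also answers to amino acid shortage and glucocorticoids, gave 287 and 350.5 CPM in the control monolayers, 248 and 249 in the knockout monolayers, 212 and 226 in the control gels and 184 and 176 in the knockout gels. It was lower in gels than in monolayers in both kinds of cell, and the knockout effect was -0.29 in gels (adjusted p = 0.0211, edgeR) and -0.35 in monolayers (adjusted p = 0.00694). The call in gels did not pass without control gel library 2 (0.0969) or knockout gel library 2 (0.075), by DESeq2 (0.0572) or with correction for length and GC content (0.0586). CCNG2, an atypical cyclin linked to cell cycle arrest, gave 49.1 and 54.3 CPM in the control monolayers, 48.8 and 49.8 in the knockout monolayers, 43.8 and 41.4 in the control gels and 34.7 and 34 in the knockout gels. It was lower in gels than in monolayers and lower again in knockout gels (log2 -0.31, adjusted p = 0.00145, edgeR; 0.0531 without control gel library 1).

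The secretory and protein turnover genes fell in both cultures, 4 of 4 in each. Of all genes tested, 9.6% were lower in monolayers and 12.4% in gels. By DESeq2 the monolayer calls of FUT11, WSB1 and ANKZF1 did not pass (adjusted p = 0.1, 0.0613 and 0.064). ERO1A, which supplies oxidizing power for disulfide bonds in the endoplasmic reticulum, gave 277 and 303 CPM in the control monolayers, 247 and 267 in the knockout monolayers, 316 and 309 in the control gels and 233 and 246 in the knockout gels. Its fall with knockout was modest (-0.38 in gels and -0.17 in monolayers on the log2 scale). FUT11, a fucosyltransferase, gave 46.2 and 46.4 CPM in the control monolayers, 37.9 and 40.4 in the knockout monolayers, 32.4 and 34.2 in the control gels and 22.6 and 24.9 in the knockout gels. The groups did not overlap, in the order control monolayers, knockout monolayers, control gels, knockout gels (log2 -0.48 for gels in control cells and -0.48 for knockout in gels). WSB1, an adaptor of an ubiquitin ligase, gave 93.2 and 88.7 CPM in the control monolayers, 79.6 and 79.7 in the knockout monolayers, 85.6 and 91.5 in the control gels and 66.6 and 62.8 in the knockout gels, with falls of -0.45 in gels and -0.19 in monolayers. ANKZF1, which releases nascent chains from stalled ribosomes, gave 73.5 and 66.5 CPM in the control monolayers, 60.5 and 56.7 in the knockout monolayers, 59.4 and 61.1 in the control gels and 29.9 and 23.3 in the knockout gels. The change in monolayers was -0.26 (adjusted p = 0.019, edgeR), and the knockout gels were 2.26-fold below the control gels (log2 -1.18 ± 0.086, adjusted p = 1.21e-10).

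Of the 7 genes with other roles, 6 fell in the knockout gels, against 12.4% of all genes tested. PPFIA4, liprin alpha-4, a scaffold of the cell cortex and synapse, gave 24.6 and 21.8 CPM in the control monolayers, 13 and 11.1 in the knockout monolayers, 30.9 and 29.8 in the control gels and 3.29 and 1.59 in the knockout gels. The control gels exceeded the knockout gels by 12.5-fold (log2 -3.64 ± 0.165, adjusted p = 1.16e-13, edgeR), the largest of the 36 differences, and the monolayers differed by 1.95-fold. The knockout gel libraries held only 60 and 30 counts of PPFIA4. Over the alternative fits, those with 1 library left out among them, its log2 change in gels ran from -4.22 to -3.21. SPAG4, a SUN-domain protein, gave 17.2 and 17.2 CPM in the control monolayers, 13.4 and 13.6 in the knockout monolayers, 20.7 and 19.3 in the control gels and 6.25 and 4.52 in the knockout gels. Its groups did not overlap, and the knockout effect was -1.90 in gels and -0.35 in monolayers on the log2 scale (adjusted p = 5.5e-14 and 0.0229, edgeR). The monolayer call was lost without any 1 of the 4 monolayer libraries (0.0728 to 0.0967). MIR210HG, the noncoding host transcript of the hypoxia-induced microRNA miR-210, gave 20.8 and 20.8 CPM in the control monolayers, 14.9 and 15.5 in the knockout monolayers, 16.9 and 19.4 in the control gels and 4.99 and 5.37 in the knockout gels. The control monolayers were highest, the control gels overlapped no knockout library, and the knockout gels were lowest (log2 -1.80 ± 0.123, adjusted p = 1.09e-13, edgeR). The hairpin of miR-210 lies in an intron of this host, and these poly(A) libraries do not measure the mature microRNA. RefSeq gives its main arm on the minus strand of chromosome 11 (GRCh38.p14, 568112 to 568133), shown here with the seed, bases 2 to 8, in capitals.
hsa-miR-210-3p: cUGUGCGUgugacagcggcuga
TMEM45A, a transmembrane protein, was raised in control gels alone, going from 7.59 ± 0.373 CPM in control monolayers to 14.2 ± 0.875 CPM in control gels and 6.08 ± 0.398 CPM in knockout gels (mean ± SD, n = 2). ANKRD37, an ankyrin repeat protein, went from 9.09 ± 0.593 to 6.38 ± 0.893 CPM in gels (adjusted p = 0.00685, edgeR). The call did not pass by DESeq2 (adjusted p = 0.0733). It was also lost without control gel library 1 (log2 -0.44) or knockout gel library 1 (-0.36). RIOK3, an atypical kinase, went from 148 ± 9.93 to 123 ± 4.15 CPM (adjusted p = 0.000386, edgeR; 0.0547 without control gel library 1). RAB20, a small GTPase of endosomes and phagosomes, gave 20.8 and 21.5 CPM in the control monolayers, 19.4 and 23.3 in the knockout monolayers, 25.4 and 23.4 in the control gels and 21.4 and 22 in the knockout gels, with a change in gels of -0.17 (95% interval -0.36 to 0.01, adjusted p = 0.171, edgeR).

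In monolayers, 18 of the 36 genes fell with the knockout and 1, PLIN2, rose. Over all genes tested, 19.2% were called, 9.6% lower and 9.6% higher. The median log2 change was -0.21, against 0.01 for all genes. The largest falls were again those of PPFIA4 and NDRG1, at 1.95-fold and 1.84-fold. Of the 18 genes, 17 also fell in gels, which is 17 of the 29 that fell there, while 4.88% of all genes tested fell in both. The 2 knockout comparisons share no library. PPP1R3B was the gene that passed in monolayers and not in gels. The count dropped to 11 without knockout monolayer library 1 and was 12 or 13 without any other monolayer library. BHLHE41, FUT11, WSB1, ANKZF1, SPAG4, BHLHE40, VLDLR, GBE1, ERO1A and DDIT4 each missed the threshold in at least 1 of those fits, with adjusted p between 0.0549 and 0.453, and no sign changed among them. SPAG4 missed it in 4 of 4 such fits and by DESeq2 (0.148), and WSB1 and FUT11 in 3 of 4 and by DESeq2 (0.0613 and 0.1). DESeq2 called 13 of the 36 lower in monolayers and none higher. Of 20 genes of the integrated stress response, a program that induces DDIT4 and VLDLR among others, 11 were lower and 1 higher in the knockout monolayers, and 6 lower and 4 higher in the knockout gels. In the gels 12.4% of all genes tested were lower with the knockout and 11.5% higher. The part of the integrated stress response in the results was not tested.

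**Figure D3:**
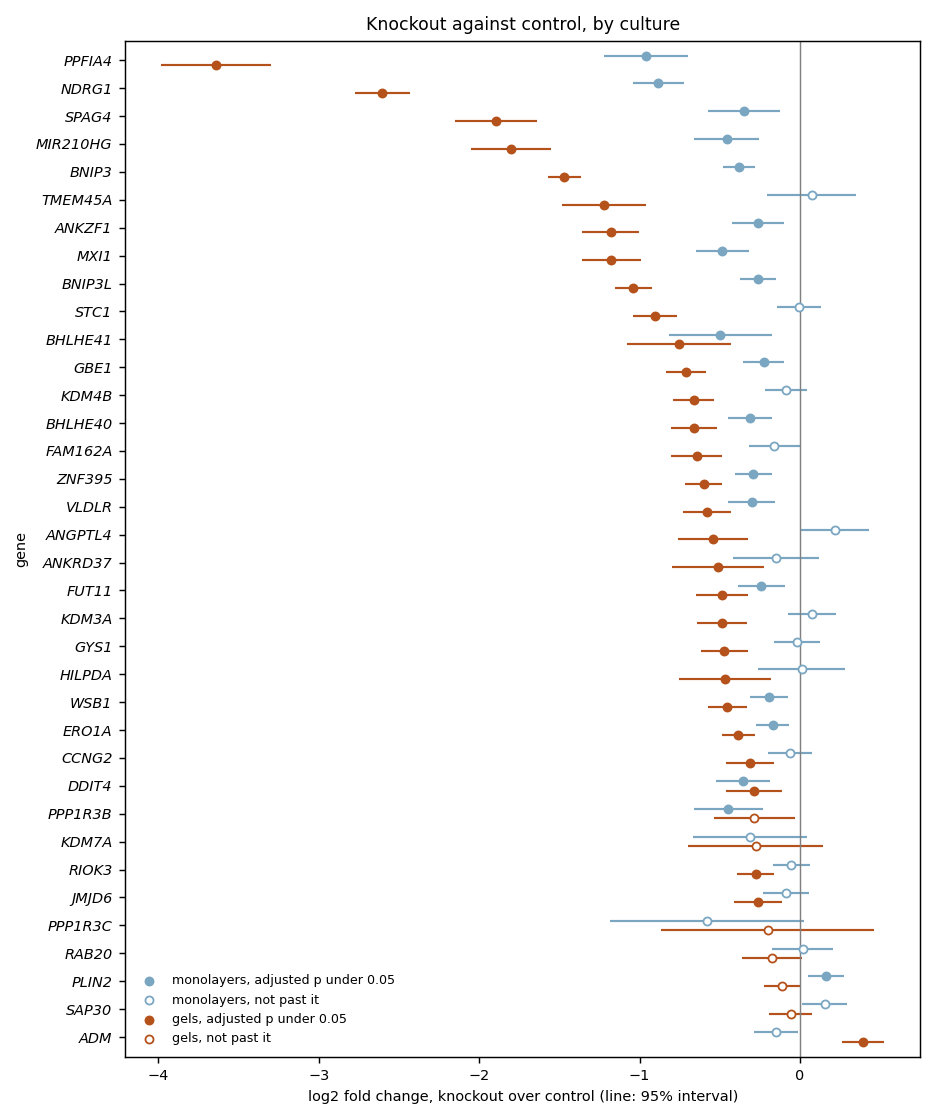
Points give the log2 fold change of knockout over control for each gene, with 95% intervals as lines, in monolayers (blue) and gels (orange), and filled points passed the adjusted threshold. Most orange points lie left of the blue point of the same gene, ADM lies to its right, and DDIT4 and KDM7A have nearly equal points.

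The knockout effect itself differed between cultures for 20 of the 36 genes. It was lower in gels than in monolayers for 19 and higher for ADM, by the interaction term of the same edgeR fit, against 3.94% and 2.67% of all genes tested (6.6% together). The median of the interaction was -0.36 for the 36 genes and -0.02 for all genes tested. PPFIA4 had the largest such difference (-2.68 ± 0.224, adjusted p = 3.79e-08), followed by NDRG1 (-1.72 ± 0.106), SPAG4 (-1.55 ± 0.171), MIR210HG (-1.34 ± 0.162) and TMEM45A (-1.30 ± 0.189). BNIP3 had the smallest adjusted p (-1.09 ± 0.071, adjusted p = 9.25e-13, edgeR). STC1, KDM3A, KDM4B, ANGPTL4, GYS1, FAM162A and TMEM45A were called in gels and not in monolayers, and for each of them the interaction passed. For JMJD6, HILPDA, CCNG2, ANKRD37 and RIOK3, also called in gels alone, it did not, and a difference between cultures was not detectable for them. DDIT4 had an interaction of 0.07 (95% interval -0.17 to 0.31). The counts of genes with a lower effect in gels were 15 to 21 when any 1 library was left out, and BHLHE40, PLIN2, ZNF395, GYS1 and FAM162A lost the call in some of those fits, BHLHE40 and PLIN2 in 7 of the 8. Because the label of the control monolayers names no Cas9 and that of the control gels does, an effect of Cas9 itself cannot be told apart from the other differences in the monolayer comparison, in the interaction and between the control cultures.

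Gels and monolayers differed for these genes in both kinds of cell, mostly downward in the knockout cells. In control cells, 12 of the 36 were higher in gels than in monolayers and 8 lower, against 16% and 10.7% of all genes tested (26.7% together), with a median log2 change of 0.09. Scaling by library size alone turned this split to 6 higher and 10 lower, and upper-quartile scaling gave 9 and 8. In knockout cells, 1 was higher (ADM, log2 0.64 ± 0.066) and 27 lower, against 20.1% and 17.9% of all genes (38% together), with a median of -0.46. These 2 comparisons share no library. BNIP3, BNIP3L, KDM4B, STC1, GYS1, NDRG1, PPFIA4 and TMEM45A were higher in gels in control cells and lower in gels in knockout cells. Of all genes tested, 0.501% had those 2 calls together. By DESeq2 the control-cell call of PPFIA4 did not pass (adjusted p = 0.0622). Nor did the knockout-cell calls of KDM4B, GYS1 and TMEM45A (0.101, 0.099 and 0.135). Scaling by library size alone lost the control-cell calls of BNIP3L, GYS1 and PPFIA4, and upper-quartile scaling that of BNIP3L. The length and GC offset lost the knockout-cell calls of KDM4B and GYS1, and fitting with no filter those of KDM4B and TMEM45A. TMEM45A rose most in control gels (log2 0.90 ± 0.122, adjusted p = 8.87e-07, edgeR), followed by BNIP3 (0.51), STC1 (0.45) and KDM4B (0.39). In knockout cells the largest falls were in PPFIA4 (-2.30), MIR210HG (-1.55), NDRG1 (-1.35) and SPAG4 (-1.33).

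Another 8 genes fell in gels in both kinds of cell: KDM7A, BHLHE40, MXI1, PPP1R3B, DDIT4, CCNG2, FUT11 and ANKZF1. Of all genes tested, 10.7% were lower in gels in control cells and 17.9% in knockout cells. The share lower in both was not counted, so the 8 have no matching background. By DESeq2 the control-cell calls of MXI1 and ANKZF1 did not pass (adjusted p = 0.0519 and 0.0912). Those of KDM7A, BHLHE40, MXI1, CCNG2 and ANKZF1 were lost in some fits with 1 library left out. KDM7A also lost its knockout-cell call without knockout gel library 2. PPP1R3B had log2 changes of -0.89 in control and -0.73 in knockout cells, KDM7A of -0.75 and -0.72, and DDIT4 of -0.54 and -0.47. MXI1 and ANKZF1 fell further in the knockout cells (-0.97 and -1.14) than in the controls (-0.27 and -0.22), a difference that is the interaction above and passed for both. The count of 12 higher in control gels dropped to 7 without control monolayer library 1 or control gel library 1, and that of 8 lower dropped to 5 without control monolayer library 2 or either control gel library. Among the 8 genes that differed in opposite directions, BNIP3L, GYS1 and PPFIA4 lost the call in control cells in some of those fits, and KDM4B, GYS1 and TMEM45A that in knockout cells without 1 or another knockout library. The gels, which alone were digested before RNA extraction, also differed in immediate-early and dissociation genes: 16 of 19 tested were higher in control gels and 15 of 19 in knockout gels, and the 20 on the list summed to 2049 to 2136 CPM in monolayers and 4284 to 4534 CPM in gels. Over all genes tested, 16% were higher in control gels and 20.1% in knockout gels. Between knockout and control gels, 5 of the 19 were higher and 5 lower, against 11.5% and 12.4% of all genes tested. Of the 6 tested markers of other cells, COL1A1 and PDGFRB were lower in gels in both kinds of cell (log2 -0.41 and -0.59 in control cells, -0.83 and -1.15 in knockout cells), and PECAM1 and CD14 passed as lower in gels in knockout cells (log2 -0.76 and -0.98) and did not pass in control cells (-0.08 and -0.57). The part of the immediate-early genes and of these markers in the results was not tested.

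**Figure D4:**
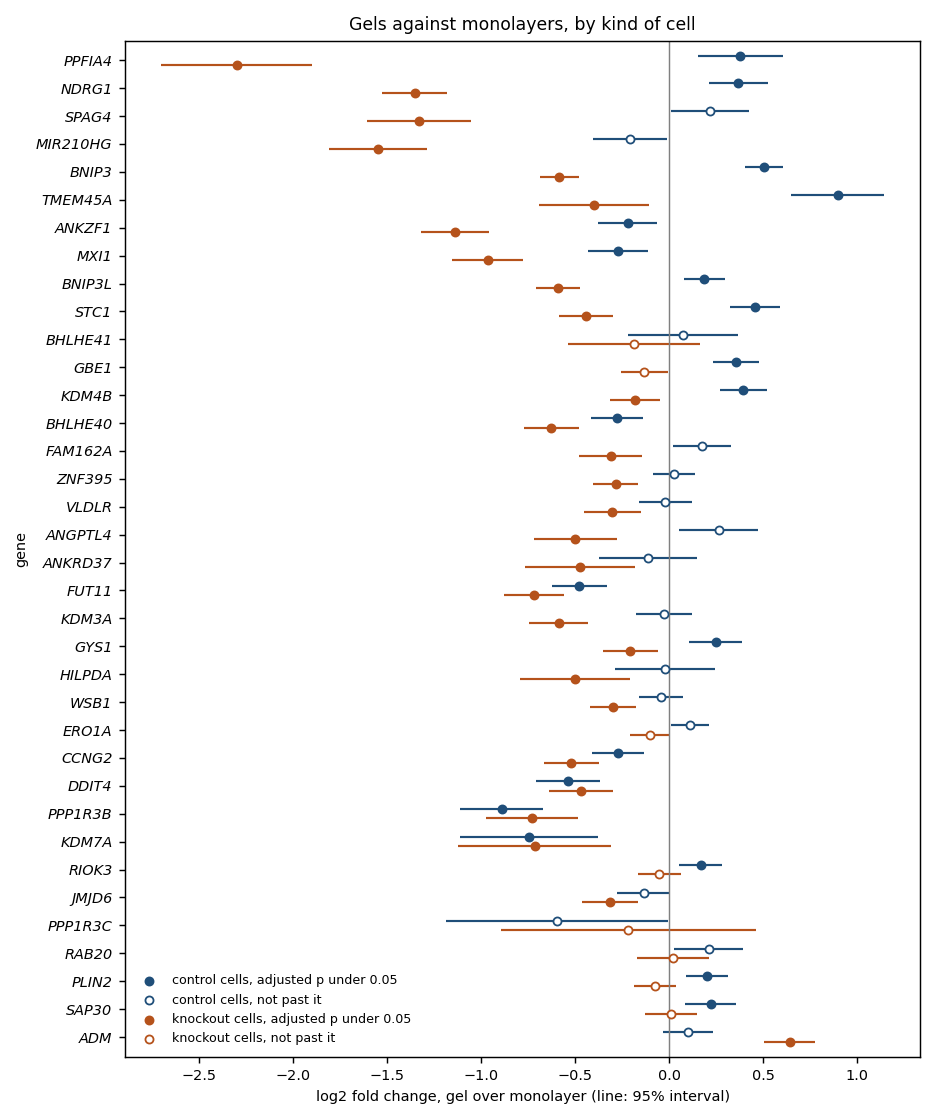
Points give the log2 fold change of gel over monolayer for each gene, with 95% intervals as lines, in control cells (blue) and knockout cells (orange), and filled points passed the adjusted threshold. For PPFIA4, NDRG1, BNIP3, TMEM45A and STC1 the points lie on opposite sides of 0, while PPP1R3B and KDM7A are low in both.

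Of the 13 HIF factors and oxygen sensors listed, 12 were tested, and 2 fell (EGLN3 and EGLN1) and 3 rose (CITED2, HIF1A and CREBBP) in the knockout gels, where 12.4% and 11.5% of all genes tested did so. In the knockout monolayers 1 fell (CITED2, log2 -0.20, adjusted p = 0.00455, edgeR) and 1 rose (EPAS1), against 9.6% of all genes in each direction. The transcript of HIF1A went from 386 ± 8.86 to 449 ± 10.9 CPM in gels (mean ± SD, n = 2, log2 0.22 ± 0.050, adjusted p = 0.00147, edgeR), a rise. HIF1A activity is set mainly by protein stability, which was not measured. EGLN3, an oxygen sensor that is itself a hypoxia target, fell from 4.24 ± 0.723 to 1.4 ± 0.428 CPM (log2 -1.60, adjusted p = 5.08e-06, edgeR). CITED2, a hypoxia-induced protein that competes with HIF for its coactivators, rose in gels from 273 ± 2.68 to 321 ± 10.4 CPM (adjusted p = 0.00028). The other alpha subunit, EPAS1, and the shared partner ARNT are named for their role, not by the rule for p. EPAS1 rose from 57.4 ± 3 to 78.3 ± 4.4 CPM in the knockout monolayers (log2 0.45, adjusted p = 5e-06, edgeR) and stood at 40.1 ± 2.96 and 45.2 ± 3.42 CPM in the control and knockout gels (adjusted p = 0.0882). ARNT stood at 55.5 ± 1.26 and 50.1 ± 2.77 CPM in the same gels (adjusted p = 0.0993).

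Hypoxia targets outside the 36 genes fell in the knockout gels as well. In that comparison 12.4% of all genes tested were lower and 11.5% higher. Of 21 genes of glucose uptake and glycolysis, 17 fell and none rose, with a median of -0.40, and the smallest adjusted p were those of PGK1, PFKFB4 and LDHA (log2 -0.90, -1.61 and -0.62). The largest fall on that list was that of ALDOC (log2 -1.98), named after its value was seen. Of 11 other targets, 9 fell and none rose, with a median of -0.57, led in adjusted p by CA9, P4HA1 and LOX (log2 -3.58, -1.07 and -1.23). In monolayers, 6 glycolysis genes fell and 2 rose with a median of 0.04, and 5 other targets fell and 1 rose with a median of -0.13. The monolayer shares over all genes tested were 9.6% lower and 9.6% higher. No difference between lists was tested.

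**Figure D5:**
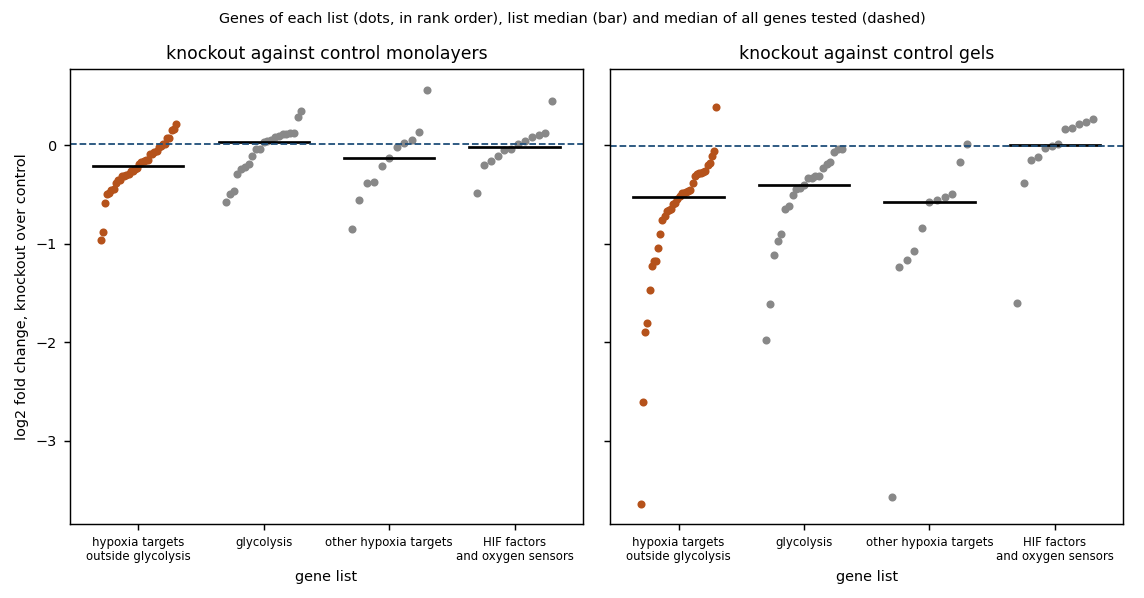
Each dot is a gene of the list named on the x axis, at its log2 fold change of knockout over control in monolayers (left) and gels (right); bars are list medians and the dashed line is the median of all genes tested. In gels the medians of the 36 genes, glycolysis and the other targets are -0.53, -0.40 and -0.57, and that of the HIF factors and oxygen sensors is 0.01.

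Per kilobase of exon, the 36 genes covered a wide range. In the control gels DDIT4 was highest at 106 RPKM (CPM per kilobase of GENCODE v29 exons), followed by BNIP3 at 86.5, NDRG1 at 59.2 and GBE1 at 56.9 RPKM. In the knockout gels DDIT4 was still highest at 87.3, SAP30 stood at 35.6 and GBE1 at 34.7, while BNIP3 was at 31.3 and NDRG1 at 9.74 RPKM. KDM7A and PPP1R3C were the lowest in control gels, at 0.433 and 0.62 RPKM. Summed over the 36 genes, the level was 3081 and 3423 CPM in the control monolayers, 2608 and 2721 in the knockout monolayers, 3610.3 and 3500.4 in the control gels and 2016 and 2018 in the knockout gels. The 4 groups did not overlap in this sum.

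Some counts are less certain than others. In GENCODE v29, exons of 13 members overlap exons of a gene on the opposite strand, and those of 3 overlap a gene on the same strand. The kit was stranded, but no source used here gives the strand setting of the counting, so reads of such pairs cannot be told apart. ANKRD37 shares 909 bases with UFSP2, whose count over all libraries was 406% of its own, BHLHE41 shares 162 with SSPN (44.7%) and BNIP3L shares 330 with PNMA2 (21.4%). NDRG1, BNIP3, PPFIA4, SPAG4, MIR210HG, TMEM45A, STC1 and ADM have no such overlap in that annotation.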

How the data were processed

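The authors deposited raw counts per gene symbol for 8 libraries. Per the submitters' processing notes, FastQC 0.11.9, STAR 2.7.9a, hg38, featureCounts and R 4.1.1 were used; no source used here names the annotation or strand setting. Totals per library give the depth. Genes passing filterByExpr (minimum count 10, 15568 of 61228) were scaled by TMM and fitted with edgeR 4.0.16 (R 4.3.3), as group means over all 8 libraries with 4 residual degrees of freedom; the common dispersion was 0.00163, a coefficient of variation of 4.03%. The quasi-likelihood F-test was two-sided, with Benjamini-Hochberg adjustment over all tested genes. The test borrows spread across genes, giving the 36 genes 11.1 to 34.3 degrees of freedom. Replicates varied beyond counting error (chi-squared per degree of freedom 2.54 to 6.31).

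The members and lists were chosen with earlier results of these data known, so no list was tested. All 36 genes are named; library values are given for up to 3 genes a role with the smallest adjusted p in knockout against control gels, for every gene that rose with knockout and for every gene not called in gels, and group means for the rest. Other pathway lists name up to 3 genes by the same p. Alternatives were other scalings, DESeq2 1.42.0, no filter, fits of only the groups compared, a replicate block, an offset for exon length and GC content, and leaving out each library. Gene positions, exons and lengths are from GENCODE v29 (GRCh38) and promoters from RefSeq (GRCh38.p14), matched on symbol; no transcript-level or protein data were used.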

Additional observations from a re-analysis of the deposited data

Results flagged for a closer look

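For 20 of the 36 genes the knockout effect in gels differed from that in monolayers by the interaction term of the edgeR fit. The interaction, on the log2 scale, was -1.09 for BNIP3, -0.78 for BNIP3L, -0.90 for STC1, -2.68 for PPFIA4, -1.55 for SPAG4, -1.34 for MIR210HG and -1.72 for NDRG1, with adjusted p from 9.25e-13 to 8.19e-07. It was -0.92 for ANKZF1, -1.30 for TMEM45A, -0.58 for KDM4B, -0.69 for MXI1, -0.49 for GBE1, -0.56 for KDM3A and -0.76 for ANGPTL4, with adjusted p from 1.04e-05 to 0.000962. For GYS1, FAM162A, ZNF395, PLIN2 and BHLHE40 it was -0.45, -0.49, -0.31, -0.28 and -0.35, with adjusted p from 0.00333 to 0.03. For ADM it was 0.54 (adjusted p = 0.000171), the one gene of the 20 whose effect was higher in gels. These mark genes such as the mitophagy receptors BNIP3 and BNIP3L, which fell with the knockout in both cultures and further in gels, and STC1 and TMEM45A, called in gels alone.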

How the results depend on the processing

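In gels the count of members lower with the knockout ran from 24 to 29 over all alternatives (25 by DESeq2, 28 with the length and GC offset), the single rise was ADM in each, and no member call changed sign in any comparison. In monolayers the total of 19 was 11 to 13 with 1 library left out, the 18 lower were 11 to 13, and the 1 higher (PLIN2) was 0 to 1; it was 0 with no filter on low counts, with only the groups compared and with DESeq2. Between gels and monolayers in control cells the total of 20 was 12 to 18, the 8 lower 5 to 7 and the 12 higher 7 to 13 with 1 library left out, and library size alone gave 6 higher. The interaction had 1 higher, or 2 without control monolayer library 1. A replicate block gave 18 lower and 1 higher with knockout in monolayers and 29 and 1 in gels. Gels against monolayers gave 8 and 12 in control cells and 27 and 1 in knockout cells, and the interaction 21 and 1. No label says whether the replicate numbers pair libraries. Replicate differences of 2 groups had correlations of -0.0777 to 0.11 across genes, which cannot show whether libraries shared a batch. Calls over all genes also depended on the tool: 1746 by DESeq2 against 2989 in monolayers, 2358 against 3721 in gels, 2427 against 4158 between cultures in control cells and 651 against 1028 for the interaction, where DESeq2 called 17 members lower. With 1 library left out they ranged down to 1848, 2106, 2144 and 413. The lone library of a group was then assumed to vary like the others. With the length and GC offset, all-gene calls in knockout gels were 1751 lower and 2704 higher, against 1935 and 1786. Between gels and monolayers in knockout cells, the 27 members lower were 22 by DESeq2 and 25 with that offset or with no filter. They were 29 with upper-quartile scaling and 30 by library size alone. DESeq2 called 4039 genes in that comparison, against 5915. Depth limits the scarce genes most: for PPP1R3C the 95% interval in gels was -0.87 to 0.47. The cause of these shifts was not tested.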
